A study of Mus musculus with 169 samples.

Results

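The genes described here encode the protein subunits of the mitochondrial ribosome, the machine that translates the few messages made from mitochondrial DNA. They were taken as every gene on the microglia arrays whose current RefSeq symbol begins with Mrpl (large subunit) or Mrps (small subunit) followed by a digit, pseudogenes left out. The rule found 78 genes on 99 probes, and 77 of these genes were measured, being among the 31927 features tested. Each gene was represented by its brightest probe. Mrpl21 was not well above background on any array and was not tested.

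The samples were microglia, the resident macrophages of the brain, isolated from Grn+/+ (wild-type, WT) and Grn-/- (knockout, KO) mice on a C57B/6J background at 4 and 16 months of age. Grn encodes progranulin, a secreted and lysosomal glycoprotein, and the knockout is carried by every cell of the animal. Cells had been enriched on Percoll density gradients and sorted with antibodies to CD11b, CD45 and Ly6G, the gates not being given in the sources used here. WT microglia were on 4 arrays per age, and KO microglia on 3 arrays at 4 months and 4 at 16 months, all of them 1-colour Agilent arrays, and other arrays of the series measured brain regions and were not used here.

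The 4 WT arrays at 16 months were counted as 2 replicates. Arrays 1 and 2 differed by a scaled median absolute deviation of 0.123 log2 units over the probes and arrays 3 and 4 by 0.0945. Repeat spots of 1 probe within an array differed by 0.145 to 0.238, and all other array pairs within a group by 0.382 to 1.28. Arrays 1 and 2 therefore agreed within the noise of repeat spots, as did arrays 3 and 4, and each pair was averaged. The other groups had 4 (WT, 4 months), 3 (KO, 4 months) and 4 (KO, 16 months) replicates. The labels do not say that replicates came from separate animals, so that the p-values measure only the spread between these samples, which may be technical.

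Levels are log2 of the processed spot signal over the 75th percentile of the array, so that 0 is the level of the 75th percentile itself. Levels are compared within a gene, never between genes, because probes differ in brightness. A gene is said to have risen or fallen only where limma's moderated test, with Benjamini-Hochberg adjustment over all features, gave an adjusted p under 0.05. Grn itself was at 6.25 ± 0.0860 (SD, n = 4) in WT and -2.77 ± 0.656 (n = 3) in KO microglia at 4 months. At 16 months Grn was at 5.04 ± 0.603 (n = 2) in WT and not well above background on any of the 4 KO arrays, and its probe thus followed the labels at both ages. The 75th percentile of the processed signal ranged from 1072 to 1752 at 4 months, from 1010 to 1511 in WT at 16 months and from 507 to 1037 in KO at 16 months. No probe was saturated, and 76 of the 77 genes tested were well above background on all 15 arrays, Mrps5 being so on 13. The number of arrays limits the precision.

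Mitochondrial ribosomal proteins are encoded in the nucleus, made in the cytosol and imported into mitochondria, where they assemble with ribosomal RNAs made from mitochondrial DNA. Some have a counterpart in the bacterial ribosome, and others were added in the mitochondrial lineage. The proteins made by this ribosome are core subunits of the respiratory chain and ATP synthase, and they are inserted into the inner membrane as they are made.

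Promoters are shown for 6 of the genes, as RefSeq gives them on GRCm38.p6, in order of transcription unless stated, with at most 30 bases of any annotated gene kept. Mrpl28 had the largest rise in KO microglia at 16 months, and Mrps18b was the only gene of the family called lower. The other 4 were chosen after their values had been seen: Mrpl46 and Mrps11, which share 1 promoter region and were both among the 8 largest rises, and Mrpl12 and Mrps18a, whose promoters hold the motifs searched. The stretch of Mrpl46 and Mrps11 is on the plus strand, with Mrpl46 read leftwards and Mrps11 rightwards, and its capitals are the 41 bases between both starts. Capitals in Mrpl12 mark a match to the NRF1 motif, and in Mrps18a a match to the ETS motif followed by a match to the YY1 motif.
Mrpl28, chr17:26123253-26123532, plus strand: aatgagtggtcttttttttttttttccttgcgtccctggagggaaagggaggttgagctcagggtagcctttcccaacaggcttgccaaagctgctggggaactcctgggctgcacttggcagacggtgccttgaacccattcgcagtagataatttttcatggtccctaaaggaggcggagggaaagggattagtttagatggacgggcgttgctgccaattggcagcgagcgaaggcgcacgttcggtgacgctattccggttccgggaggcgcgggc
Mrps18b, chr17:35916411-35916541, minus strand: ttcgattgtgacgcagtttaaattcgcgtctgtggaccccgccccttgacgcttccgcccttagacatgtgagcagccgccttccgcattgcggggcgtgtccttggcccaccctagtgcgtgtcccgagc
Mrpl46 and Mrps11, chr7:78783060-78783160, plus strand: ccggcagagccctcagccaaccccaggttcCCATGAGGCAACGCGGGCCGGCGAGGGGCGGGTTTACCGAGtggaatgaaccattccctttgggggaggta
Mrpl12, chr11:120484387-120484666, plus strand: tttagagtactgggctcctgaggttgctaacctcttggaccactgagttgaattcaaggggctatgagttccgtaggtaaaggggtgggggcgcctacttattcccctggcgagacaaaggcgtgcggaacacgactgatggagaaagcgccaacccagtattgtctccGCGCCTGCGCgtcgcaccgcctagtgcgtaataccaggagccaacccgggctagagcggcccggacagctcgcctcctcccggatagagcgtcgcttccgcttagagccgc
Mrps18a, chr17:46110754-46111033, plus strand: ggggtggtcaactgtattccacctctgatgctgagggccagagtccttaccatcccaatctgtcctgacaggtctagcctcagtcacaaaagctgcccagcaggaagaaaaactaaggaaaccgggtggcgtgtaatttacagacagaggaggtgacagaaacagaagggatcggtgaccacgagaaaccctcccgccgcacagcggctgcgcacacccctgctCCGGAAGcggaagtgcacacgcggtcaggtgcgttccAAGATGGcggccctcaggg

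The motifs were counted over windows from 250 bases before to 50 bases after the start, on both strands, in the 69 of 78 genes that matched a RefSeq window. The NRF1 motif (GCGC, then any base, then TGCGC) was in 13 of them, or 18.8%, against 5.19% of 27025 genes. The ETS motif (CCGGAAG, bound by GABPA among others) was in 26, or 37.7%, against 9.93%. The YY1 motif (AAGATGG) was in 13, or 18.8%, against 7.28%. At least 1 of the 3 was in 43 windows, or 62.3%, against 20.0% of all genes. All genes here are those with such a window, whether or not they were detected in microglia. The motifs were not counted in another set of widely expressed genes, so the higher shares cannot be called particular to this family. Of the 51 genes with a window that rose at 16 months, 9 held the NRF1, 15 the ETS and 11 the YY1 motif. Of the other 18 genes 4, 11 and 2 did, counting Mrpl21, which was not tested and held an ETS match. The windows of Mrpl28 and Mrpl46 held none of the 3, and that of Mrps11 held 1 YY1 match. That of Mrps18b held an ETS match that begins 44 bases past the start, beyond the bases printed. A match is a stretch of letters, and no binding was measured here.

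At 16 months the family was higher in the samples of Grn-/- microglia across both subunits. Of the 77 genes measured, 59 rose, 1 fell (Mrps18b) and 17 did not pass the test. In the same comparison 19.3% of all features were called higher and 15% lower (34.3% in either direction). With only probes above background on all 15 arrays kept, as 76 of the 77 genes were, 28.9% of 18274 features were called higher. The median difference, KO minus WT, was 1.72 on the log2 scale, with quartiles of 1.13 and 2.10, beside a median of 0.12 over all features. A higher value was seen in 75 of the 77 genes, the exceptions being Mrps18b and Mrpl52. All 4 KO replicates were above both WT replicates in 63 genes and below both in 1, whereas 24.2% and 17.9% of all features were so placed. The rises ran from 1.62-fold to 12.1-fold, 27 of them over 4-fold, and in 33 genes the 95% interval of the difference lay wholly above 1 log2 unit. Because these are bulk arrays, fewer cells of a type and less RNA per cell cannot be told apart, for any gene below. Marker genes, given further below, differed between these samples too. The summed signal of microglia markers over the 75th percentile was 1192 to 1977 in WT and 251 to 629 in KO. That of choroid plexus markers was 303 to 415 in WT and 730 to 1254 in KO. The part of other cell types in the shift was not tested.

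The shift was present in every KO replicate at 16 months. The median level over the 77 genes was 3.23 and 2.89 in the WT replicates and 4.45, 5.43, 4.71 and 4.20 in KO replicates 1 to 4. It was 3.33, 3.36, 3.27 and 3.01 in WT and 3.05, 3.60 and 3.28 in KO microglia at 4 months. The 16-month KO replicates thus stood apart from all others, and the groups at 4 months overlapped. In KO replicates 1 to 4 at 16 months, 71, 75, 74 and 66 genes of the family were above both WT replicates, beside 43.5%, 45.2%, 44.1% and 35.2% of all features. KO replicate 2 had the highest median, the lowest 75th percentile of all arrays (507) and the highest choroid plexus marker sum. Without it, 57 genes rose, 1 fell and the median difference was 1.45. The part of array brightness in the result was not tested.

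**Figure D1:**
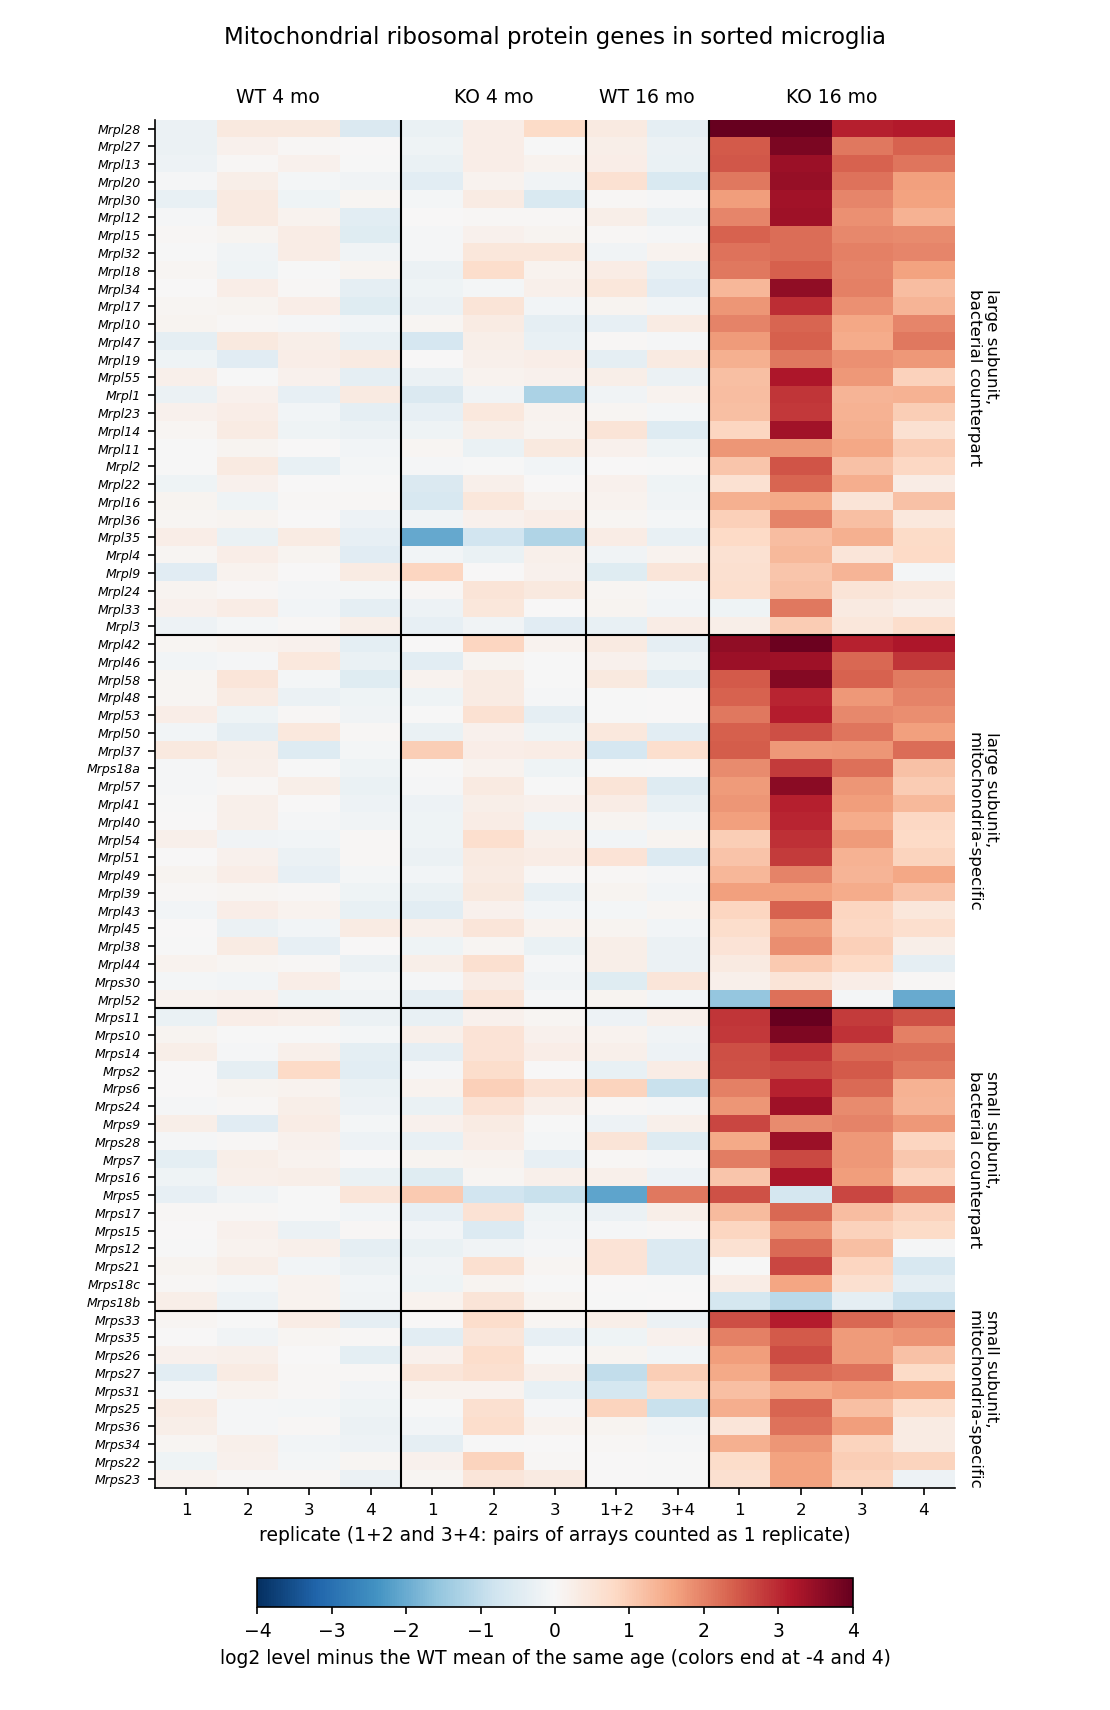
Heat map of the 77 genes measured (lines, grouped by subunit and ordered by their difference at 16 months) across 13 replicates (columns), coloured by the log2 level minus the WT mean of the same age. Columns of KO microglia at 16 months are red for nearly all genes, most strongly in replicate 2, while the KO columns at 4 months are pale apart from a few genes such as Mrpl35 and Mrpl1.

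Large-subunit proteins with a bacterial counterpart form the catalytic core and its surroundings. Of these genes 24 of 29 rose at 16 months and none fell, with a median of 1.77 and a range of 0.61 to 3.60. Mrpl3, Mrpl9, Mrpl14, Mrpl22 and Mrpl33 were not called, with values of 0.61 to 1.55. Mrpl28, which encodes one of them, gave the largest rise of the family. Its levels were 0.66 and -0.04 in WT and 4.45, 4.31, 3.41 and 3.48 in KO replicates at 16 months, and between -0.85 and 0.49 in the 7 replicates at 4 months. All 4 KO replicates at 16 months lay above every other replicate. The difference was 3.60 (SE 0.427, limma adjusted p = 0.000267), or 12.1-fold.

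Mrpl27 encodes a protein placed near the peptidyl transferase centre, where peptide bonds form. Its levels were 3.60 and 3.14 in WT and 5.82, 7.13, 5.46 and 5.73 in KO at 16 months, a difference of 2.67 (SE 0.395, limma adjusted p = 0.000795). Mrpl13 was at 3.87 and 3.32 in WT and 6.07, 7.03, 5.95 and 5.75 in KO, a difference of 2.60 (SE 0.336, limma adjusted p = 0.000407). Neither gene's KO replicates overlapped with any other group, and replicate 2 was the highest for both. Mrpl12, whose protein forms the stalk that recruits translation factors and has also been found bound to the mitochondrial RNA polymerase, was at 3.04 and 2.59 in WT and 4.76, 6.19, 4.63 and 4.20 in KO. That rise was 2.13 (SE 0.455, limma adjusted p = 0.00519) and was lost in 1 of 18 alternative settings.

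Mrpl15 and Mrpl32 had small errors. Mrpl32, whose protein is matured in mitochondria by the m-AAA protease before it joins the ribosome, was at 2.43 and 2.71 in WT and 4.76, 4.80, 4.58 and 4.52 in KO at 16 months. Its difference was 2.09 (SE 0.211, limma adjusted p = 0.000141). Mrpl15 was at 2.86 and 2.78 in WT and 5.17, 5.06, 4.73 and 4.71 in KO, a difference of 2.10 (SE 0.230, limma adjusted p = 0.000191). Both groups were tight in both genes and did not overlap. A second probe of Mrpl15 gave -0.27, so the rise of this gene rests on its brighter probe.

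The smallest rise of the family was that of Mrpl24, which was at 5.13 and 4.95 in WT and 5.72, 6.21, 5.56 and 5.48 in KO. Its difference of 0.70 (SE 0.221, limma adjusted p = 0.0327) turned to -0.05 with quantile normalization and to 0 within rounding (-0.00138) without scaling, and the call was kept in 7 of 18 alternative settings. Mrpl3, mutated in a human disorder of mitochondrial translation, was at 3.23 and 3.81 in WT and 3.75, 4.55, 3.98 and 4.24 in KO, with overlapping groups and no call (0.61, SE 0.253, limma adjusted p = 0.0883). Without scaling, the difference of Mrpl3 was -0.09.

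Proteins of the large subunit that bacteria lack lie mostly on its outer surface. Of their genes 16 of 21 rose and none fell, with a median of 1.75 and a range of -0.37 to 3.44. Mrpl38, Mrpl43, Mrpl44, Mrpl52 and Mrps30 were not called. Mrpl42 was at 2.82 and 2.12 in WT and 6.01, 6.39, 5.54 and 5.71 in KO at 16 months, and between 1.54 and 2.79 at 4 months. The KO replicates at 16 months were above all others, and the difference of 3.44 (SE 0.328, limma adjusted p = 0.000112), or 10.8-fold, had the smallest adjusted p of the family.

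Mrpl46 lies head to head with Mrps11, a small-subunit gene, their starts being 42 bases apart. It was at 1.54 and 1.18 in WT and 4.77, 4.75, 3.64 and 4.23 in KO, a difference of 2.99 (SE 0.331, limma adjusted p = 0.000196). Mrps11, its neighbour, was at 0.38 and 0.79 in WT and 3.43, 4.67, 3.39 and 3.13 in KO, a difference of 3.07 (SE 0.384, limma adjusted p = 0.000344). For both genes every KO replicate at 16 months exceeded every other replicate. No other 2 genes of the family with a RefSeq window start within 1000 bases of each other in opposite directions.

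Mrpl58, a peptidyl-tRNA hydrolase built into the ribosome that releases stalled chains, is listed by its older name Ict1 in earlier annotation. It was at 4.57 and 3.77 in WT and 6.62, 7.85, 6.52 and 6.25 in KO, a difference of 2.64 (SE 0.431, limma adjusted p = 0.00133). The KO replicates did not overlap with WT. Mrps18a, named for the small subunit but placed in the large one, was at 2.00 and 2.04 in WT and 3.92, 4.82, 4.23 and 3.18 in KO, and rose by 2.02 (SE 0.351, limma adjusted p = 0.00183).

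Mrpl45, whose protein faces the inner membrane at the exit of the ribosomal tunnel, was at 2.18 and 1.94 in WT and 2.75, 3.77, 2.89 and 2.74 in KO. The rise of 0.98 (SE 0.295, limma adjusted p = 0.0267) was lost in 7 of 18 alternative settings. Mrps30, also placed in the large subunit, was at 1.81 and 2.80 in WT and 2.51, 2.81, 2.57 and 2.34 in KO. Its WT replicates were farther apart than its KO replicates, and it was not called (0.25, SE 0.270, limma adjusted p = 0.514). Its sign changed under 3 alternatives. Mrpl44, another gene mutated in human disorders of mitochondrial translation, was at 2.50 and 2.01 in WT and 2.61, 3.30, 3.04 and 1.89 in KO, overlapping (0.45, SE 0.358, limma adjusted p = 0.366). Mrpl52 had the widest spread in KO, 3.27, 7.02, 4.77 and 2.81, and its difference was -0.37 (SE 0.905, limma adjusted p = 0.812).

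Small-subunit proteins with a bacterial counterpart bind messenger RNA and hold the decoding centre. Of their 17 genes 12 rose and 1 fell, with a median of 1.88 and a range of -0.74 to 3.07. The fall and the lower end are those of Mrps18b, which was counted here with Mrps18c. Mrps18a, of the same kind, was counted among the large-subunit proteins that bacteria lack. Mrps5, Mrps12, Mrps18c and Mrps21 were not called, with values of 0.53 to 1.69. Mrps10 was at 0.90 and 0.63 in WT and 3.58, 4.52, 3.67 and 2.79 in KO at 16 months, a difference of 2.87 (SE 0.364, limma adjusted p = 0.000373), or 7.33-fold. At 4 months its KO levels, 1.03, 1.37 and 1.00, were just above its WT levels of 0.95, 0.81, 0.81 and 0.76, without a call (a difference of 0.30). Mrps2, mutated in a human disorder of mitochondrial translation, was at 1.08 and 1.69 in WT and 3.94, 4.03, 3.84 and 3.50 in KO. It rose by 2.44 (SE 0.363, limma adjusted p = 0.000831), while its second probe gave 0.17.

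Mrps16, mutated in another such disorder, was at 3.23 and 2.83 in WT and 4.13, 6.29, 4.71 and 3.88 in KO. Its rise of 1.72 (SE 0.551, limma adjusted p = 0.0339) was lost in 7 of 18 alternative settings. Mrps12, whose protein sits at the decoding centre, was at 4.22 and 3.09 in WT and 4.26, 5.91, 4.85 and 3.61 in KO. Its groups overlapped and it was not called (1.00, SE 0.529, limma adjusted p = 0.170). Mrps5 rested on a WT replicate at the lower limit of the scale (-4.94) and another at -0.72, with KO replicates at -0.29, -3.53, -0.16 and -0.61, and was not called.

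Mammals carry 3 genes of the Mrps18 kind, and they did not move alike. Mrps18a rose, as above. Mrps18b, in the small subunit, was at 2.69 and 2.72 in WT and 2.02, 1.62, 2.36 and 1.85 in KO at 16 months, all 4 KO replicates being below both WT replicates. Its difference was -0.74 (SE 0.229, limma adjusted p = 0.0290). The call was lost in 8 of 18 alternative settings, including without either WT replicate, while the value stayed between -1.44 and -0.43. Its second probe gave -0.11, and at 4 months its difference was 0.25. Mrps18c was 0.53 higher without a call (limma adjusted p = 0.345). These differences between the paralogs were not themselves tested.

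Small-subunit proteins that bacteria lack lie mainly on the surface. Of their genes 7 of 10 rose and none fell, with a median of 1.46 and a range of 0.73 to 2.50. Mrps23, Mrps25 and Mrps36 were not called. Mrps33 and Mrps35 had the largest differences of the 10, 2.50 (SE 0.331, limma adjusted p = 0.000470) and 1.99 (SE 0.288, limma adjusted p = 0.000717). Mrps22, mutated in a human disorder of mitochondrial translation, was at 2.50 and 2.48 in WT and 3.22, 4.10, 3.47 and 3.39 in KO, a rise of 1.05 (SE 0.283, limma adjusted p = 0.0160) without overlap, and the call was lost in 4 of 18 alternative settings. Mrps36, now held to be a subunit of the oxoglutarate dehydrogenase complex and not of the ribosome, was at 4.25 and 4.03 in WT and 4.63, 6.32, 5.81 and 4.47 in KO, with no call (1.17, SE 0.474, limma adjusted p = 0.0800), whereas its second probe was called. By first letters alone, 39 of 48 Mrpl genes and 20 of 29 Mrps genes rose.

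**Figure D2:**
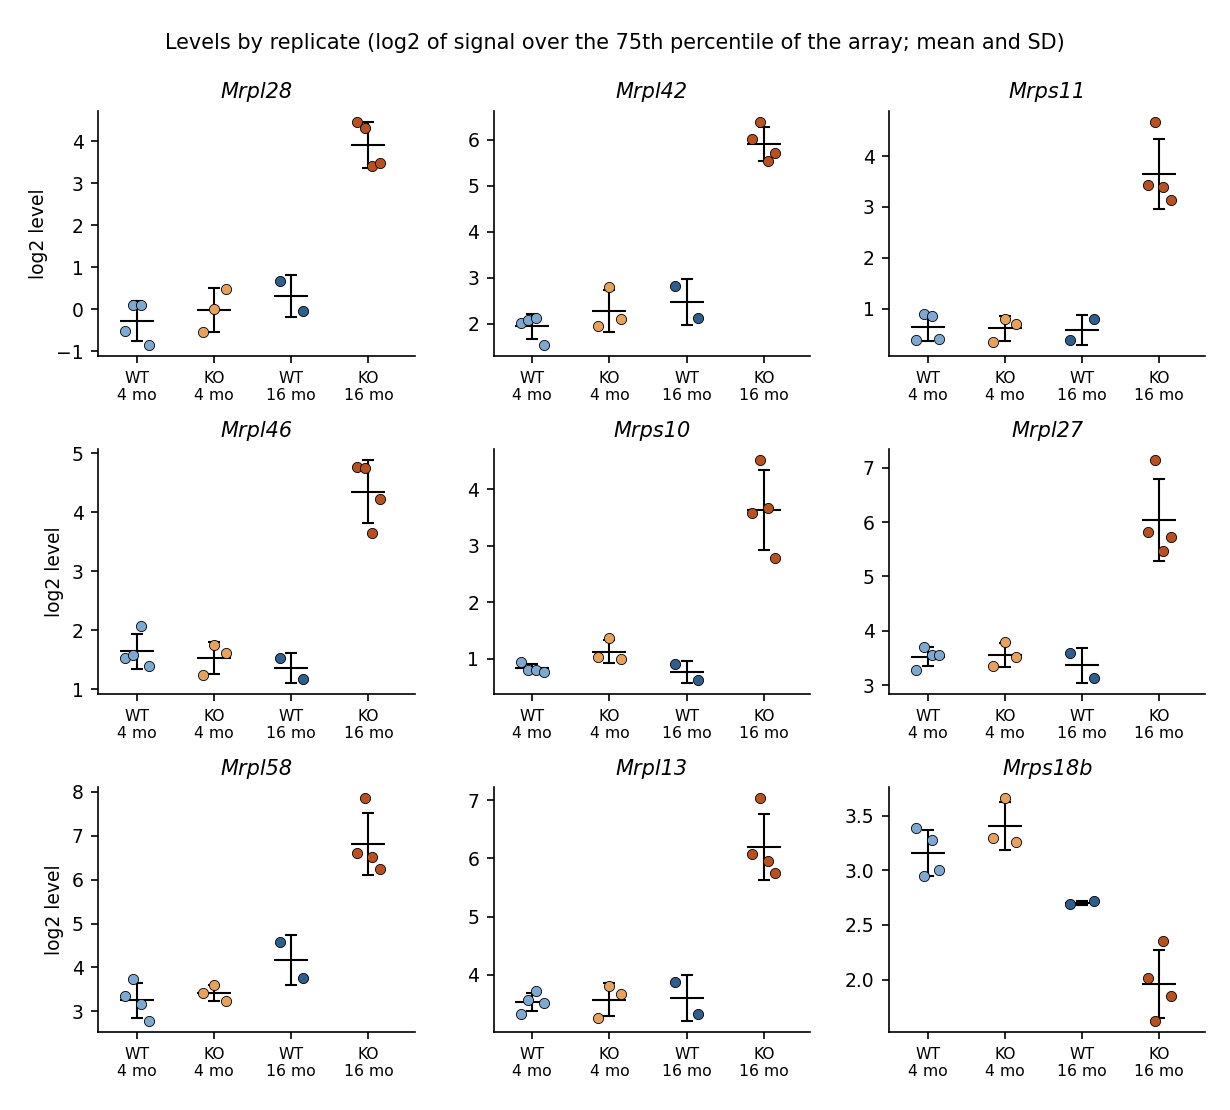
Log2 levels by replicate (points) with the mean and SD of each group for the 8 largest rises at 16 months and for Mrps18b. In the 8 rising genes the KO replicates at 16 months lie above all other replicates, and in Mrps18b they lie below them.

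At 4 months no gene of the family was called by limma, beside 0.0251% of all features (5 higher, or 0.0157%, and 3 lower, or 0.0094%). Before adjustment 1 gene, Mrpl35, had a p under the threshold. The median difference was 0.06 (0 over all features), 48 values were higher and 29 lower, and the range was -1.34 to 0.55. In 50 of 77 genes the 95% interval of the difference lay within -1 to 1 log2 units, and in the others it reached past 1 unit in at least 1 direction. KO replicate 2 had 44 genes above every WT replicate, and KO replicates 1 and 3 had 7 and 13, beside 33.4%, 17.4% and 17.4% of all features.

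Mrpl35 stood at the low end at 4 months. Its levels were 0.05, -0.49, 0.11 and -0.53 in WT and -2.25, -0.99 and -1.43 in KO, so that all 3 KO replicates were below every WT replicate. It was the only gene of the family placed so, and Mrps10 the only one placed the other way, beside 6.6% and 4.96% of all features. The difference of Mrpl35 was -1.34 (SE 0.326, limma adjusted p = 0.362). At 16 months it was at 0.00 and -0.58 in WT and 0.50, 0.96, 1.15 and 0.47 in KO, a rise of 1.06 (SE 0.369, limma adjusted p = 0.0478) that was lost in 12 of 18 alternative settings.

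The next smallest p-values at 4 months belonged to Mrpl1 and Mrpl24, and neither was called. Mrpl1, whose protein forms the stalk beside the exit site for used tRNA, was at 0.77, 1.18, 0.68 and 1.35 in WT and 0.41, 0.85 and -0.26 in KO (-0.66, SE 0.406, limma adjusted p = 0.967). At 16 months Mrpl1 was at 0.18 and 0.45 in WT and 1.55, 3.18, 1.69 and 1.70 in KO, a rise of 1.72 (SE 0.460, limma adjusted p = 0.0159) that was lost in 4 of 18 alternative settings. Mrpl24 was at 5.67, 5.60, 5.50 and 5.48 in WT and 5.62, 6.06 and 5.94 in KO at 4 months (0.31, SE 0.195, limma adjusted p = 0.968). Both genes had overlapping groups at 4 months.

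The difference between KO and WT itself differed between the ages in 35 genes of the family, each with the more positive difference at 16 months, beside 6.84% of all features with a more positive and 6.51% with a more negative one. The median of this contrast (the difference at 16 months minus that at 4 months) was 1.64, and 55 genes had a p under 0.05 before adjustment. The smallest adjusted p-values belonged to Mrpl42, Mrpl46, Mrpl15, Mrpl32 and Mrps11. For Mrpl42 the contrast was 3.10 (SE 0.438, limma adjusted p = 0.00304), from a difference of 0.34 at 4 months to 3.44 at 16 months. Mrpl46 gave 3.10 (SE 0.441, limma adjusted p = 0.00311) and Mrps11 gave 3.09 (SE 0.512, limma adjusted p = 0.00536), their differences at 4 months being -0.11 and -0.02. Mrpl15 gave 2.02 (SE 0.307, limma adjusted p = 0.00395), and Mrpl32 gave 1.81 (SE 0.281, limma adjusted p = 0.00419). Mrpl28, with the largest rise at 16 months, gave the largest contrast as well, 3.33 (SE 0.570, limma adjusted p = 0.00615). By subunit group, the contrast passed in 16 of 29 and 9 of 21 large-subunit genes with and without a bacterial counterpart, and in 7 of 17 and 3 of 10 such small-subunit genes. Per the scanner headers, the arrays of an age share 1 barcode and the code that follows it differs between the genotypes, so that age and barcode, and genotype and that code, cannot be told apart.

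The other genes of mitochondrial translation did not all follow. Of 5 measured ribosomal proteins with other names, 3 rose at 16 months: Gadd45gip1 by 1.97 (limma adjusted p = 0.00854), Aurkaip1 by 1.91 (limma adjusted p = 0.00681) and Chchd1 by 1.90 (limma adjusted p = 0.0138). Dap3 and Ptcd3, both of the small subunit, gave 0.22 and 0.08 and were not called. The rises were 60% and the falls 0% of this short list, beside 19.3% and 15% of all features. With only probes above background on all 15 arrays kept, 28.9% of features were called higher. With the mean over a gene's probes, Gadd45gip1 turned to -0.13.

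Among 13 translation factors 3 rose and 3 fell, with a median of -0.13. Tsfm, the exchange factor that recharges elongation factor Tu, rose by 2.55 (SE 0.494, limma adjusted p = 0.00319), and Tufm, elongation factor Tu itself, by 1.57 (limma adjusted p = 0.0100). Guf1, a GTPase of mitochondrial translation, fell by 2.25 (limma adjusted p = 0.00995). Of the 22 mitochondrial tRNA synthetases and amidotransferase subunits 6 rose and none fell, with a median of 0.96. Fars2, which charges the tRNA for phenylalanine, rose by 1.90 (limma adjusted p = 0.00179). Kars, which serves the cytosol as well as mitochondria, and Cars2 each rose by 1.60 (limma adjusted p = 0.00376 and 0.00361), and Cars2 turned to -0.12 with the mean over its probes.

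Of 24 measured genes for ribosome assembly and ribosomal RNA modification 5 rose and none fell, with a median of 0.57. Mterf3, needed for assembly of the mitochondrial ribosome, rose by 1.92 (limma adjusted p = 0.0241), Mrm3, a ribosomal RNA methyltransferase, by 1.65 and Gtpbp10, an assembly GTPase of the large subunit, by 1.51. Of 17 genes for transcription and upkeep of mitochondrial DNA 3 rose and 4 fell, with a median of 0.03. Mterf2 rose by 2.98 (SE 1.03, limma adjusted p = 0.0464). Twnk, the helicase of mitochondrial DNA replication, fell by 2.29 (limma adjusted p = 0.0462) and Tefm, a transcription elongation factor, by 2.04. The groups of Tefm overlapped, its WT replicates being at 2.35 and -0.30. The calls of Mterf2, Twnk and Tefm were lost in 10 of 17, 6 of 17 and 8 of 18 alternative settings. Of the factors whose motifs were counted above, Nrf1 fell by 1.61 (limma adjusted p = 0.0205). Its calls under the alternative settings are not given here. Yy1 was in none of the lists and is not given. Gabpa, a factor of the ETS motif, was 1.14 higher without a call (limma adjusted p = 0.168). Beside 19.3% of all features called higher and 15% lower, the shares that rose and fell were 23.1% and 23.1% of the factors, 27.3% and 0% of the synthetases, 20.8% and 0% of the assembly genes and 17.6% and 23.5% of the last list. The shares that rose were thus near those of all features in the factor, assembly and mitochondrial DNA lists. That of the synthetases was near the 28.9% called higher among features from probes above background on all 15 arrays. Of the 15 genes with the largest changes in these 5 lists, 1 (Tsfm) was called under every alternative setting.

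Cytosolic ribosomal proteins and the respiratory chain are given for comparison. Of 83 cytosolic ribosomal protein genes 22 rose and 1 fell at 16 months, with a median of 0.66. Of 83 nuclear genes for respiratory chain and ATP synthase subunits 41 rose and none fell, with a median of 1.46. These rises are 26.5% and 49.4% of the lists, beside the same 19.3% of all features. With only probes above background on all 15 arrays kept, the share of features called higher was 28.9%. No test was made of the difference between these lists and the mitochondrial ribosome. At 4 months no gene of any of these lists was called. The contrast between the ages was called, as more positive at 16 months, in 4 of 83 cytosolic ribosomal and 15 of 83 respiratory genes. These are 4.82% and 18.1% of the lists, beside 6.84% of all features.

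**Figure D3:**
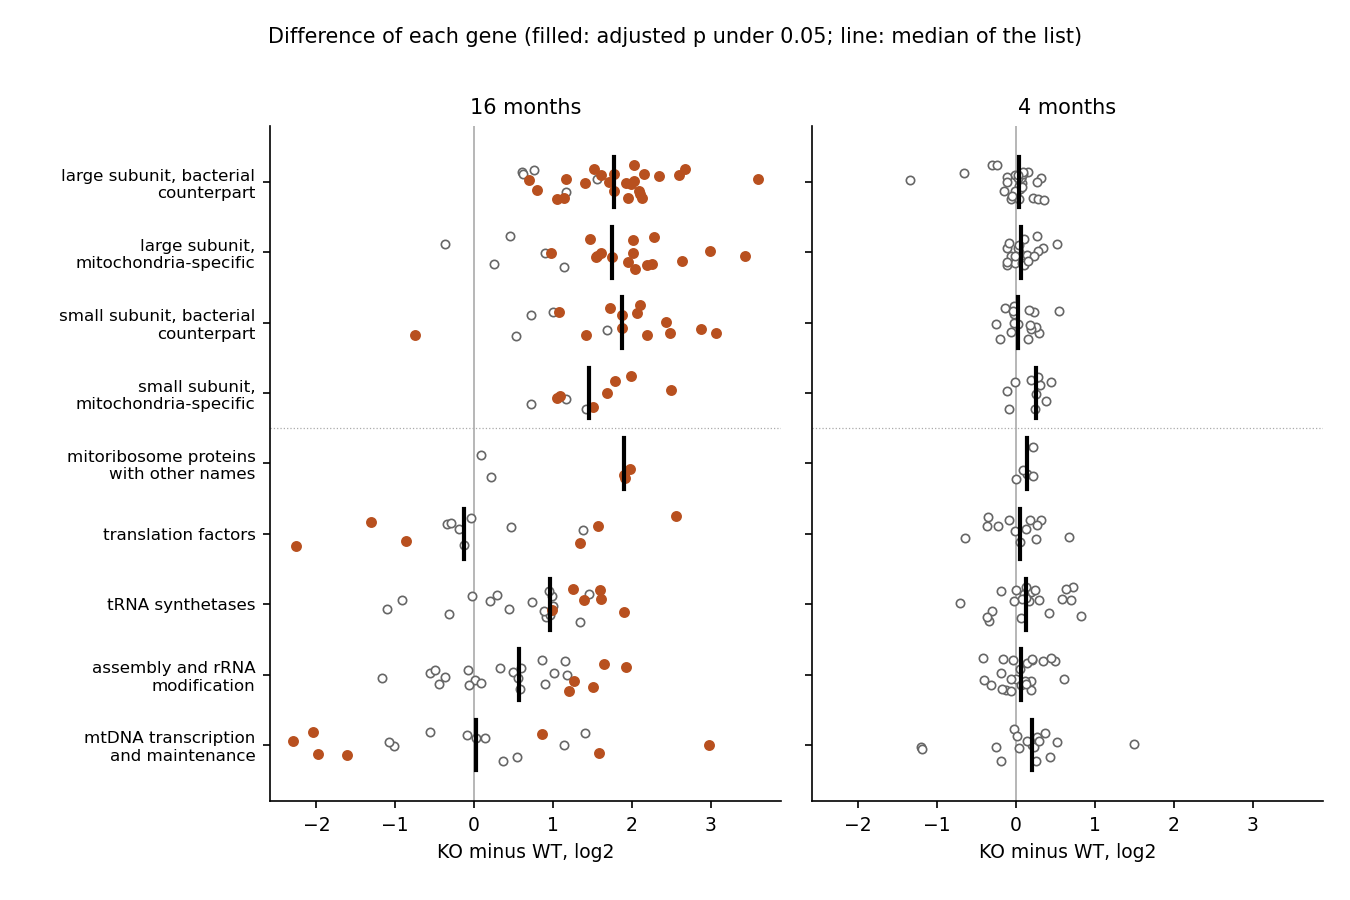
Difference of each gene between KO and WT microglia (log2) at 16 months (left) and 4 months (right), by list, with filled points for an adjusted p under 0.05 and a line at the list's median. The 4 lists of ribosomal protein genes at the top have medians of 1.46 to 1.88 at 16 months, and no point is filled at 4 months.

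A second probe passed the filter for 21 genes of the family. Both probes had the same sign at 16 months in 17 of them, and in 10 both were called the same way. No second probe was called lower and 14 were called higher. The 4 of opposite sign were Mrpl15, Mrpl41, Mrpl47 and Mrps25, whose second probes gave -0.27, -0.38, -0.44 and -3.22. In Mrps25 neither probe was called, the brighter one giving 1.42. In Mrps23 the brighter probe gave 0.73 without a call, and the second was called at 2.82 (limma adjusted p = 0.000446). The same held for Mrps36, Mrpl43 and Mrpl22, whose second probes were called at 2.25 (limma adjusted p = 0.00650), 1.78 (limma adjusted p = 0.0173) and 1.73 (limma adjusted p = 0.0361).

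The 2 WT replicates at 16 months differed by over 1 log2 unit in 13 genes of the family, with a median gap of 0.38 over the 77. The widest gap was that of Mrps5, 4.22, followed by Mrps27 (1.94), Mrps6 (1.79) and Mrps25 (1.77).

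Some marker genes of microglia and of other cell types were called at 16 months as well. In this comparison 19.3% of all features were called higher and 15% lower. Of 12 microglia markers 11 fell, with a median of -2.84. Their summed level, as signal over the 75th percentile, was 1192 to 1977 in WT and 251 to 629 in KO, beside 1741 to 2217 and 1672 to 2588 at 4 months. All 12 were well above background on at least 1 KO array at 16 months. Of 6 choroid plexus markers 4 rose and none fell, with a summed level of 303 to 415 in WT and 730 to 1254 in KO. At 4 months the choroid plexus sum was 10.2 to 119 in WT and 165 to 270 in KO, with none of the 6 markers called.

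The only red blood cell marker measured, Hba-a1, rose by 4.42. It was at -2.05 and -2.86 in WT and -0.43, 2.70, 2.04 and 3.54 in KO at 16 months. Of 6 oligodendrocyte markers 1 rose and 3 fell, with Mobp below background on all 4 KO arrays. The astrocyte, endothelial and lymphocyte lists had 1 rise and 1 fall each, the monocyte and neutrophil lists 1 rise each, the neuron list 1 fall and the border macrophage list neither. These counts come from short lists and stand beside the same 19.3% of all features called higher and 15% lower. The neutrophil sum was 65.2 to 287 in WT and 0.554 to 151 in KO. Cd163 (border macrophage) and Cxcr2 (neutrophil) were below background on all KO arrays at 16 months. The part of other cell types in the difference of the ribosomal protein genes was not tested.

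**Figure D4:**
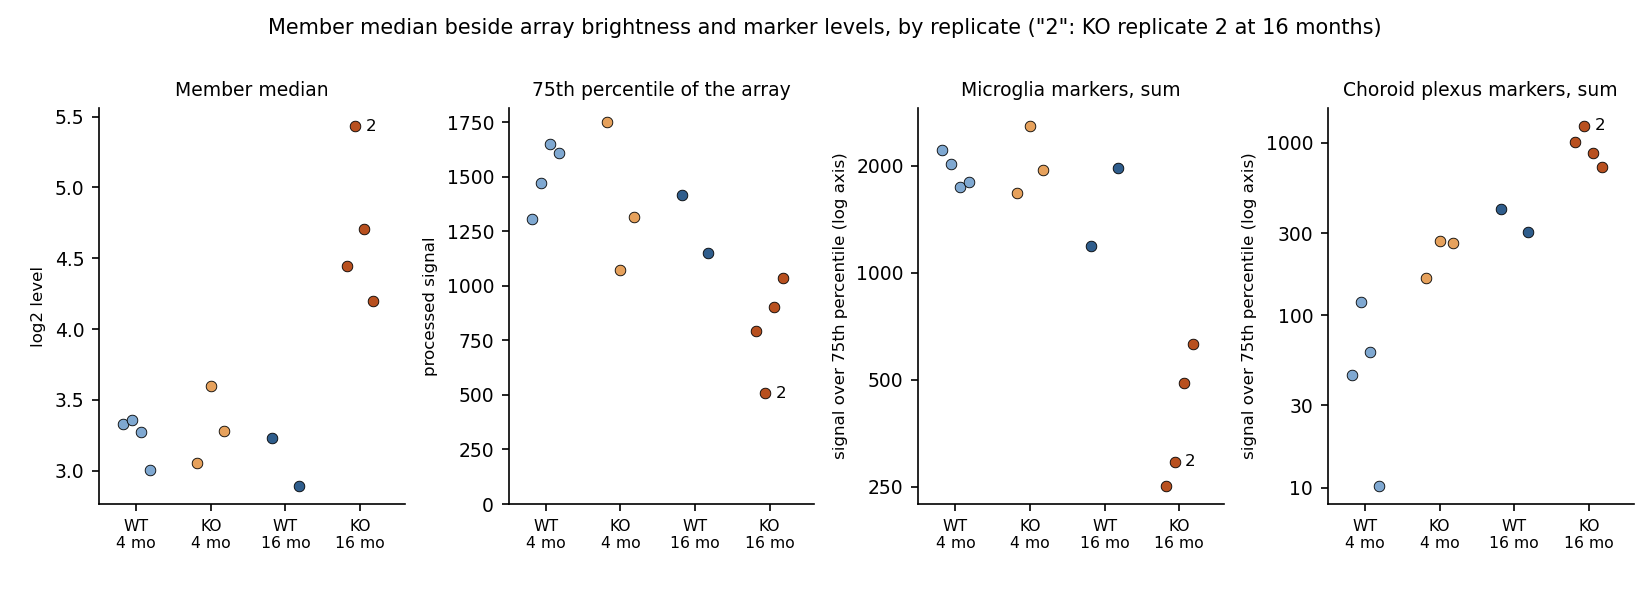
Median log2 level of the 77 genes, the array's 75th percentile of processed signal, and the summed levels of the microglia and choroid plexus markers (log axes) by replicate. KO replicates at 16 months have the highest member medians (4.20 to 5.43) and choroid plexus sums and the lowest 75th percentiles and microglia sums, and replicate 2 is labelled.

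The count of rising genes at 16 months depended on the fit and on the scaling. With arrays of that age fitted alone it was 25, and without scaling between arrays 33 (1 fell in the latter), while the median difference was 1.72 and 1.06. Quantile normalization gave 52 rises, beside 20.2% of all features called higher. Leaving out either WT replicate gave 42 or 39 rises. The share of all features called is not given for 16 months alone or with a replicate left out. The counts of those settings can therefore not be set beside it. Under every one of 18 alternatives 21 genes were called higher, and 65 had a higher value. The share of all features called higher and lower, 19.3% and 15% as reported, was 14.5% and 19.1% with the 75th percentile taken over probes above background on all 15 arrays and 6.94% and 22.8% without scaling, while the family had 49 and 33 rises and 1 fall each.

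**Figure D5:**
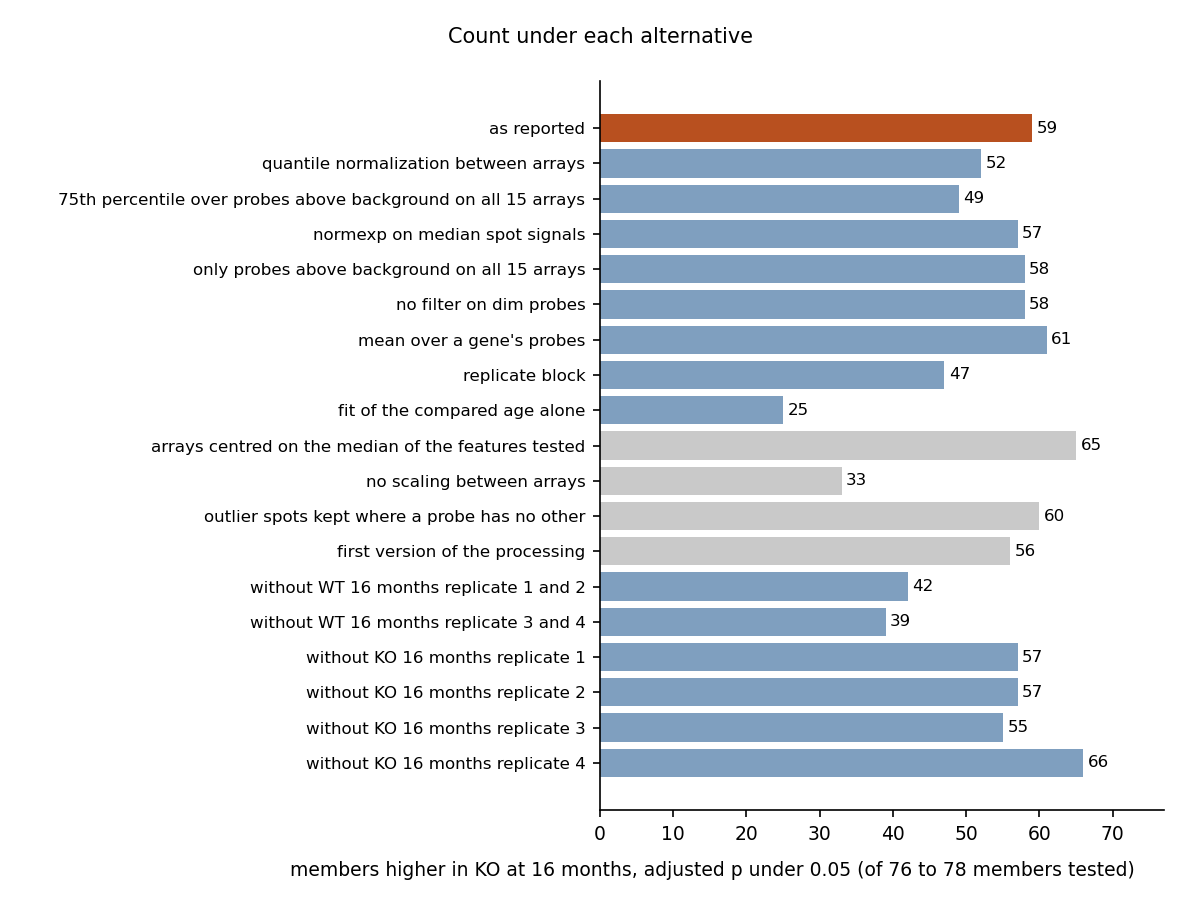
Number of genes of the family called higher in KO microglia at 16 months under each setting (bars, from 0), with alternatives chosen after seeing the data in grey. The count is 59 as reported and between 25 and 66 otherwise.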

How the data were processed

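Microglia RNA labelled with Cy3 was hybridised by the authors to 15 Agilent 1-colour arrays (design 028005). Per the file headers, spot intensity was read with Feature Extraction 10.7.3.1, and the deposited processed signal, an intensity, was used. R 2.15.3 is listed too, per the submitters' processing notes, and 1 further array had been left out by the submitters, per the series' design text. At 4 months the processed signal differed from the background-subtracted signal by a factor that varied between spots (SD 0.0877 to 0.171 log2 units), and at 16 months it did not. Control spots and outlier spots were left out. Signals were averaged over repeat spots, divided by each array's 75th percentile, floored at 0.0325 of it (log2 -4.94) and log2-transformed. Of 55681 probes the 45616 well above background on at least 3 arrays were kept. RefSeq accessions named 26582 of the probes (20145 symbols; GRCm38.p6), and the brightest probe stood for each gene, giving 31927 features.

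One limma model (limma 3.58.1, R 4.3.3) held a mean for each of the 4 groups over 13 replicates, with Benjamini-Hochberg adjustment over all features. Its script was tested on simulated data. Genes named with values were the 8 largest non-overlapping calls in each direction at 16 months, the 3 smallest p-values at 4 months, the 5 smallest adjusted p-values of the contrast between ages, 11 genes chosen for their function, and the 3 largest calls of each other list. Others (Mrpl52, Mrps5, Mrps18c, Mrps33, Mrps35, Mrps23 and Mrps25, Nrf1, Gabpa, and second probes) were chosen after their values were seen. The members and lists were chosen with earlier results of these data known.

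The processing was settled in 3 versions with counts of the family in view (56 rises and 0 falls, 60 and 1, and the 59 and 1 reported), which differ in the floor, in outlier spots and in how probes were collapsed. The noise of repeat spots was first taken as an SD and then as a scaled median absolute deviation. The normexp alternative used median spot signals, since the files used here hold no mean signal. Same-numbered WT and KO replicates correlated in their deviations from the group means by -0.042 to -0.036 at 4 months (3 pairs) and 0.104 to 0.135 at 16 months, where 4 pairs rest on 2 WT replicates. The numbers were not taken as pairs.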

Additional observations from a re-analysis of the deposited data

Results flagged for a closer look

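In 84 groups of 4 samples examined (4 WT replicates at 4 months or 4 KO replicates at 16 months of a named gene), 6 held 1 replicate far from the other 3 by Dixon's test, which by chance marks about 1 group in 20. KO replicate 2 at 16 months was the high one for Mrpl1, at 3.18 against 1.55 to 1.70, and for Mrpl45, at 3.77 against 2.74 to 2.89. It was also the high one for Kars, at 5.27 against 4.14 to 4.25, and for Gtpbp10, at 3.93 against 1.94 to 2.09. WT replicate 3 at 4 months stood out for Mrps30, at 3.37 against 2.99 to 3.02, and WT replicate 1 for Kars, at 3.48 against 3.24 to 3.28.

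The difference between KO and WT microglia differed between the ages, by limma's test of that contrast, in 35 genes of the family. Among the genes chosen for their place at 4 months or in the contrast, it was 2.38 for Mrpl1 (SE 0.614, limma adjusted p = 0.0300), 2.40 for Mrpl35 (SE 0.492, limma adjusted p = 0.0124), 2.02 for Mrpl15, 1.81 for Mrpl32, 3.10 for Mrpl42, 3.10 for Mrpl46 and 3.09 for Mrps11. In Mrpl35 and Mrpl1 the values at 4 months were lower in KO, and for Mrpl35 the groups at 4 months did not overlap.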

How the results depend on the processing

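The counts at 16 months and of the contrast between ages rest on few samples: WT at 16 months has 2 replicates, and leaving 1 out leaves a lone sample that is assumed to vary like the other groups. Between 39 and 66 genes of the family rose and 0 or 1 fell when each replicate of 16 months was left out in turn; 39 rose without WT replicates 3 and 4. The fit of 16 months alone, which has fewer residual degrees of freedom by construction, gave 25 rises and 0 falls. The share of all features called is not given for that fit or for those without a replicate. Without scaling there were 33 rises and a median of 1.06 at 16 months, and 18 genes and a median of 1.09 in the contrast. Quantile normalization gave medians of 1.17 at 16 months and 1.23 in the contrast. The fall of Mrps18b was not called (0 falls) with probes above background on all 15 arrays only, the mean over a gene's probes, the replicate block, 16 months alone, median centring, the first version of the processing, or without either WT replicate. In the contrast 1 gene was called lower with quantile normalization, the narrower 75th percentile, no filter on dim probes, or without KO replicate 3. At 4 months no gene was called under any alternative. The cause was not tested, unless stated.

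With the replicate number as a block, 47 genes rose and 0 fell at 16 months, and 18 were called in the contrast. The share of all features called is not given for this setting. The numbers were not taken to pair the samples. Median centring, no scaling, outlier spots kept (60 rises, 1 fall) and the first version (56 and 0) were chosen after seeing the data. The median of all features at 16 months was 0.12 as reported, 0.00 with the narrower 75th percentile, 0.44 with normexp, 0.35 after median centring and -0.35 without scaling.

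Some signs changed. At 16 months Mrpl24 was -0.052 with quantile normalization and -0.00138 without scaling, and in the contrast -0.28 and -0.16. Mrps30 was -0.060 with the narrower percentile, -0.44 without scaling and -0.24 without WT replicates 1 and 2. Without scaling Mrpl3 was -0.090 and Mrpl44 -0.33. With the mean over probes Gadd45gip1 was -0.13 and Cars2 -0.12. At 4 months, where no gene was called, Mrpl15 was -0.12 with the mean over probes, -0.081 with the block, -0.076 without scaling and -0.081 to 0.18 without a replicate. Mrps11 was 0.010 with normexp, 0.10 after median centring and -0.11 to 0.12 without a replicate, and Mrpl46 was 0.0058 after median centring and -0.22 to 0.037 without a replicate. Of the other values of named genes, 926 kept direction and call, 124 lost and 6 gained a call. Dim probes limit Mrps5, which was above background on 13 arrays.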
